A study of Homo sapiens with 12 samples.

Results

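Windows of mature transcripts that ran over 2 or more exon blocks, and so crossed at least 1 splice junction, were examined in the authors' deposited tables of N6-methyladenosine (m6A) after knockout of METTL16. A window belonged to them when its number of blocks was at least 2, and windows of 1 block with a similar summed block size served for comparison. The rule used no methylation value. It took 85305 of 296568 windows over the 4 tables: 22401 of 79372 and 21062 of 71406 for guide sgMETTL16-1, replicates 1 and 2, and 21015 of 75788 and 20827 of 70002 for guide sgMETTL16-2. Series of 4 values below keep that order of tables.

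All groups were cells of NOMO-1, a line from human acute myeloid leukaemia, transduced with lentivirus and selected in puromycin at 2 ug/ml. They carried the control guide sgNS or 1 of the METTL16 knockout guides, sgMETTL16-1 and sgMETTL16-2. Each of the 3 guides had 2 libraries of polyadenylated input RNA and 2 of RNA precipitated with an m6A antibody (IP), 12 in all, and whether replicates were separate cultures is not stated. Each table sets the libraries of 1 guide and replicate number against sgNS libraries, but which sgNS libraries is not stated, so tables may share controls. The tables hold comparisons and no value per library. Read depth is therefore unknown, no value below has a replicate error, and intervals cover counting error only and take windows as independent. All 10 myeloid markers examined had a window in each table, and none of the 3 erythroid and 3 epithelial markers had one. The T cell marker CD2 and the B cell marker CD79A had a window in each table, and CD3D, CD3E and MS4A1 had none.

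N6-methyladenosine is written on nascent messenger RNA by the METTL3-METTL14 complex, which keeps away from exon ends because exon junction complexes sit just upstream of splice junctions. The mark therefore gathers in long internal exons and in last exons, around the stop codon. METTL16 is a separate methyltransferase, best known for U6 small nuclear RNA and for hairpins of the MAT2A transcript, whose splicing it controls. An IP fragment that spans a junction aligns to both exons, so a window over several blocks joins exon ends that lie apart in the genome.

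The inner edges of the blocks can be checked against the genome where a first exon is short enough to lie within the promoter table of RefSeq (GRCh38.p14), which ends 50 bases into each gene. That reference holds 27326 genes and covered 296 distinct edges, of which 294 (99.3%) were followed by GT, the first bases of most introns. The other 2 edges were followed by GC, the known minor donor. GT made up 4.79% of all pairs of adjacent bases in the transcribed part of that reference. The last exon base was G at 260 edges (87.8%). The 8 edges below belong to windows that were called, and are shown because they let the blocks be read as spliced exons. Each is written 5′ to 3′. Capitals mark up to 15 bases inside the window's block and lower case the bases outside it, so that the change from capitals to lower case at the gt or gc is the exon end.
RPL18 (chr19:48619131-48619155, minus strand): ggaGGCGCCATCATGgtgagctcgc
RPS10 (chr6:34426022-34426046, minus strand): CCTGCAGCCGCAGAGgtgagtttct
FAU (chr11:65122085-65122104, minus strand): GGGACCGCCGTTCAGgtaag
S100A6 (chr1:153535942-153535963, minus strand): GCCGCCTCCCTACCGgtgagtt
TNNT1 (chr19:55149157-55149175, minus strand): TCAGACACAGCCTAGgtaa
MRFAP1 (chr4:6640694-6640718, plus strand): GCCGTTACTCTGCGCgtaagtcgct
MID1IP1 (chrX:38801473-38801497, plus strand): GTTTCCCCGGCGGGTgtgagttgtt
CAPG (chr2:85413974-85413998, minus strand): GCAAGGCGTTGGCAGgcaagtagtg
CAPG, an actin filament capping gene, carries the GC edge. In RPL18, a protein of the large ribosomal subunit, the block holds 12 bases and its first 3 printed letters are exon bases before the window. All calls of these windows were higher. The windows were picked because they were called, and how many of the 296 edges belonged to called windows was not counted. The direction therefore describes the 8 printed edges only. The largest in the authors' deposited tables was 2.40 (FDR = 0.0102), for RPS10 of the small ribosomal subunit in replicate 1 of sgMETTL16-2. FAU, which encodes a ribosomal protein fused to a ubiquitin-like one, was called at 0.32 (FDR = 2.51e-06) in the authors' deposited table of sgMETTL16-2 replicate 2, in a window of 5 blocks. For S100A6, a calcium-binding protein, the authors' deposited replicate 2 tables gave 0.40 (FDR = 1e-11) with sgMETTL16-1 and 0.23 (FDR = 0.000891) with sgMETTL16-2.

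Windows over several blocks lay on 11032, 10214, 10779 and 10309 genes, or 72.5%, 68.7%, 71.3% and 69% of the genes with any window. Between 68.8% and 70.2% of them had 2 blocks, between 20.1% and 21.4% had 3, and between 9.45% and 10.1% had 4 or more. The median summed length was 151, 178, 151 and 179 bases, against 120 or 121 for windows of 1 block. Over the genome they were far longer, with a median span of 2626, 2326, 2498 and 2296 bases, because the longest gap between blocks had a median of 1829 to 2113 bases. The smallest block of a window had a median of 29 or 30 bases, and in 48.5% to 50.1% of the windows it held less than 30 bases. In 4 to 6 windows a table every gap was under 30 bases, so nearly all gaps had the size of introns. Protein-coding genes held 95.6% to 95.9% of them, of those with a RefSeq gene, against 92.3% to 92.7% of 1-block windows.

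Fold enrichment of IP over input was lower in windows over several blocks than in 1-block windows of like length. Their median fold in the authors' deposited tables was 1.52, 1.69, 1.59 and 1.65, and that of the 1-block windows, weighted to the same make-up in 30-base length bins, was 1.86, 2.05, 2 and 2. Among enriched windows, those with an FDR of IP over input under 0.05, the medians were 1.69, 1.77, 1.76 and 1.75 against 1.88, 2.09, 2.01 and 2.07. The lower fold was therefore seen in every table, with and without enrichment as a condition.

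The share of enriched windows went the other way. Over all windows it was 8.1%, 11.9%, 10.2% and 12.3%. In windows over several blocks it was 12.9% (95% exact interval 12.5% to 13.3%), 18.2% (17.7% to 18.7%), 16.3% (15.8% to 16.9%) and 19.4% (18.8% to 19.9%). For 1-block windows of like length it was 10.7%, 16.4%, 13.5% and 17.2%, below each of these intervals. Windows over several blocks thus made up 44.9%, 45.1%, 44.3% and 46.9% of the enriched windows. The order depends on what is asked of a window. When a fold of at least 2 was asked in place of the FDR, 29.2%, 34.3%, 33.3% and 33.2% of the windows over several blocks passed, against 45.2%, 51.6%, 50% and 50.2% of 1-block windows. At equal fold and size, between 1.9 and 2.1 and from 200 to under 500 bases, 31%, 40.3%, 35.1% and 39.8% were enriched, against 28.5%, 42.3%, 32.9% and 39.9% of 1-block windows. There, neither kind had the larger share in all tables.

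Genes that had windows of both kinds gave the same order of folds. Among windows of 200 to under 500 bases, the median fold of a gene was lower over several blocks in 66.5% of 2795 genes, 63.1% of 2489, 66.8% of 2687 and 63.4% of 2376. The medians over those genes in the authors' deposited tables were 1.64, 1.76, 1.75 and 1.76 over several blocks and 2.02, 2.11, 2.28 and 2.07 within 1 block. Under 200 bases the gene shares were 58.2%, 58.8%, 59.4% and 58.3%, and from 500 to under 1000 bases, with 161 to 246 genes, they were 49.1%, 60.9%, 57.8% and 54.5%. The excess of enriched windows was smaller within genes. Weighted by gene and length class, 6.37%, 10.1%, 8.82% and 10.3% were enriched over several blocks, against 5.99%, 9.83%, 7.59% and 9.71% within 1 block.

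From 2 blocks to 4 or more the fold changed little. The share enriched rose a great deal, but so did length, and 1-block windows of like length rose much alike. Windows of 2 blocks had a median length of 121 bases in each table, those of 3 blocks 211 to 240 and those of 4 or more 388 to 420. Their median folds in the authors' deposited tables were 1.48, 1.69, 1.52 and 1.65 with 2 blocks and 1.6, 1.72, 1.71 and 1.71 with 4 or more. In 1-block windows of like length the same step took the fold from 1.78, 1.95, 1.9 and 1.89 to 2.07, 2.32, 2.28 and 2.26. With 2 blocks, 9.08%, 13.1%, 11.2% and 13.5% of windows were enriched, against 7.01%, 11.2%, 9.08% and 11.4% of 1-block windows of like length. With 4 or more blocks, 31.8%, 45%, 41.8% and 48.3% of windows were enriched, against 29.9%, 43.3%, 36.7% and 45.8% of 1-block windows of like length.

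**Figure D1:**
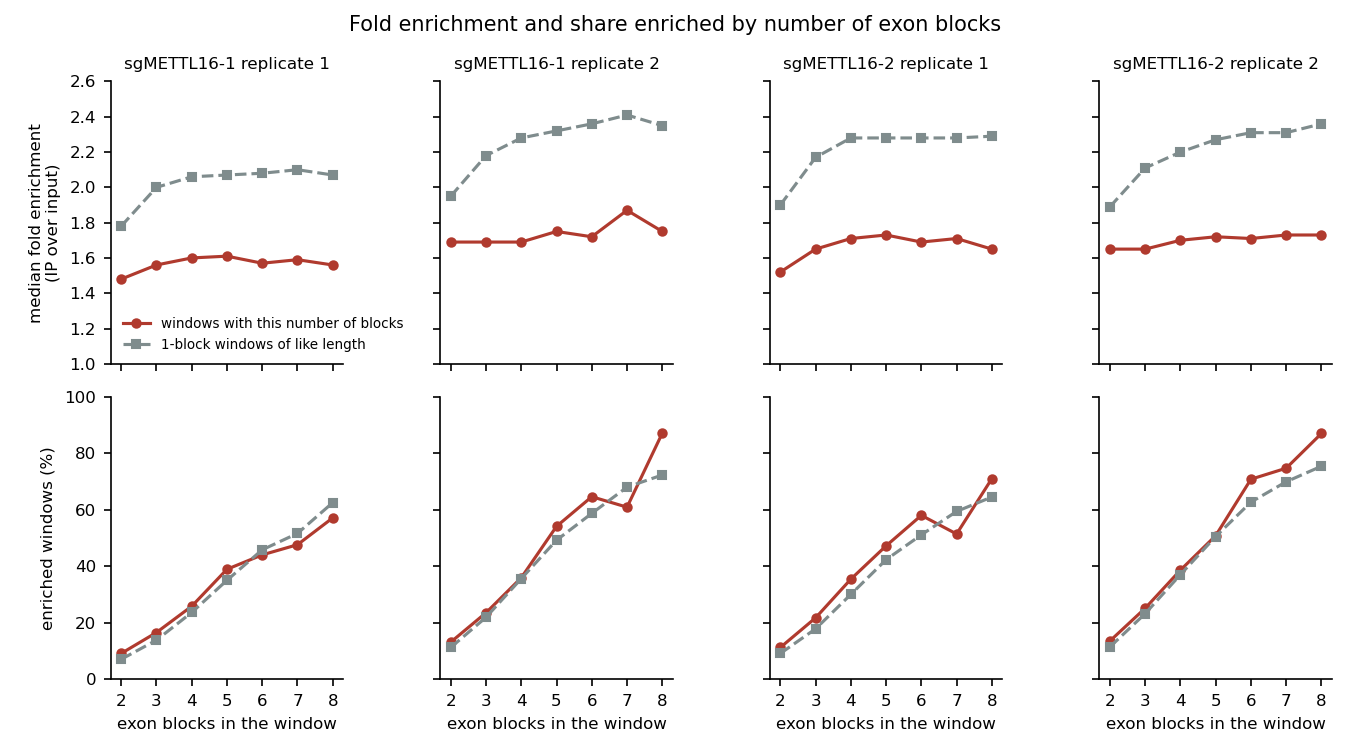
Median fold enrichment of IP over input (top row, linear axis from 1) and percent of windows enriched at an FDR under 0.05 (bottom row) against the number of exon blocks, 1 column for each deposited table. Circles are windows with that number of blocks and squares are 1-block windows weighted to the same lengths; the circles lie below the squares for fold at every block number, while the shares enriched run close together, for example 9.08% against 7.01% at 2 blocks in the replicate 1 table of sgMETTL16-1.

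Position in the gene also set these windows apart. In RefSeq's gene coordinates, 15.9%, 19.6%, 18.5% and 20.2% of them had their 5′ edge within 1000 bases of the gene's 5′ end. Of 1-block windows of like length, 8.64%, 10.9%, 9.46% and 11.4% did. The 3′ edge lay within 1000 bases of the gene's 3′ end in 10.6%, 9.8%, 11.1% and 10.9%, against 32%, 30.5%, 31.5% and 30.8%. Only that 1 edge had to lie there. Like length means like summed length, so windows over several blocks reached further over the genome than those they are set against. Exon lengths were not examined, and whether they bear on these shares was not tested. In general last exons are long, and a window inside one crosses no junction. With windows near both ends left out, the few near the 3′ end that did cross one were enriched most often, in 31.6%, 39.8%, 35.1% and 39.9% of cases, before those near the 5′ end (13.9%, 20%, 19.4% and 20.9%) and in between (9.83%, 15%, 12.6% and 15.8%). Their median length was 269 to 271 bases, against 180 to 205 near the 5′ end and 150 or 151 in between. At each position the fold stayed lower than in 1-block windows of like length. In between the ends, the medians in the authors' deposited tables were 1.48, 1.62, 1.52 and 1.6 against 1.81, 1.97, 1.9 and 1.93, and near the 5′ end they were 1.67, 1.69, 1.71 and 1.72 against 2.13, 2.15, 2.28 and 2.07.

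**Figure D2:**
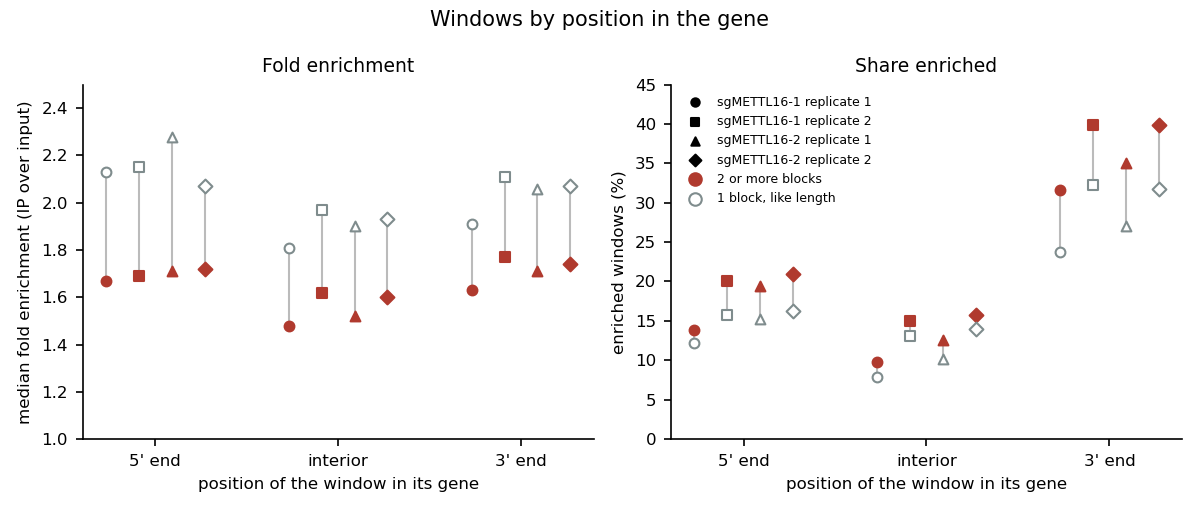
Median fold enrichment of IP over input (left) and percent of windows enriched (right) by position in the gene. There is 1 symbol shape for each deposited table, and windows near both ends are left out. Windows of the 5′ group had their 5′ edge within 1000 bases of the gene's 5′ end. Those of the 3′ group had their 3′ edge within 1000 bases of its 3′ end, and interior windows had neither. Filled symbols are windows of 2 or more blocks and open symbols 1-block windows of like length at the same position; filled symbols lie lower on the left and higher on the right at all 3 positions.

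The size of a window's smallest block, which can be an inner block, went with its fold. Where the smallest block held 1 to 10 bases, the median fold in the authors' deposited tables was 1.48, 1.58, 1.52 and 1.59, against 1.78, 1.9, 1.9 and 1.86 in 1-block windows of like length. Where it held 100 or more, the median was 1.86, 2.04, 2.04 and 1.98, against 2.08, 2.32, 2.28 and 2.26 in 1-block windows of like length. Both kinds had higher folds there, and the windows over several blocks stayed below. The length of the gap went with the fold as well. Among 2-block windows with a gap under 200 bases the median fold was 1.48, 1.52, 1.52 and 1.49, and with a gap of 20000 bases or more it was 1.69, 1.81, 1.8 and 1.77, in the authors' deposited tables. Across short gaps, 8.06%, 14.4%, 10.3% and 14.5% of these windows were enriched, against 5.23%, 10%, 7.12% and 9.78% of 1-block windows of like length. Across the longest gaps the shares were 6.34%, 11.7%, 9.35% and 12.3%, against 7.39%, 13.9%, 10.8% and 13.5%.

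Windows matched between tables showed how far the segmentation itself repeated. A total of 6879 windows could be matched in all 4 tables, with the same strand and gene name and at least 0.5 of the bases of each in common. Of these, 1777 crossed a junction in each table, 799 of them with the same number of blocks throughout and 25 with identical start and blocks. Enrichment in all 4 tables was found for 679 of the 1777 (38.2%) and for 846 of the 3754 windows of 1 block throughout (22.5%), with lengths not matched. The 10 with the highest mean fold, 1 for each gene, were chosen for that value. They included NCOA5, a nuclear receptor coactivator gene, with folds of 2.78, 2.11, 15.2 and 1.96 in the authors' deposited tables over 3 or 4 blocks. UQCC3, an assembly factor of respiratory complex III, had 2.6, 7.61, 4.94 and 10.7, and GEMIN6, of the complex that assembles spliceosomal particles, had 12.6, 1.92, 4.94 and 1.96 in the authors' deposited tables. In none of these genes did the 4 tables give like folds, although the window was enriched in each. DGCR14, FBXL19, NMT2, the Polycomb gene RYBP, SECISBP2L, the spindle gene TACC3 and TMEM263 complete the 10. None of their windows was called in any table.

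METTL16 had 1 window over several blocks, in the sgMETTL16-1 replicate 1 table (chr17:2477861-2502239, 25 and 36 bases on either side of a gap of 24318). Its log2 fold change in the authors' deposited table was 0.00 (FDR = 0.675). These values measure methylation relative to input and do not check the knockout. MAT2A had none: its 2 or 3 windows per table each lay within 1 block.

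A change between knockout and sgNS was called where the authors' FDR of the difference was under 0.05. Lower below means a negative log2 fold change, taken here as less m6A in the knockout. That reading follows the usual convention for columns of these names, is not stated in the files, and if it were the other way round every direction would turn. Windows over several blocks were called in 215, 325, 756 and 323 cases. That is 0.96% (95% exact interval 0.836% to 1.1%), 1.54% (1.38% to 1.72%), 3.6% (3.35% to 3.86%) and 1.55% (1.39% to 1.73%) of them, where 0.355%, 0.749%, 1.84% and 0.734% of all windows were called. Restricted to lengths that both kinds share, the shares were 0.96%, 1.52%, 3.55% and 1.5%, against 0.184%, 0.798%, 2.06% and 0.745% of 1-block windows. They supplied 76.2%, 60.7%, 54.2% and 62.8% of all calls. Within gene and length class the shares were 0.546%, 0.735%, 2.17% and 0.538%, against 0.114%, 0.336%, 1.17% and 0.368%.

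The direction of the calls differed between the tables. Lower calls numbered 172, 61, 403 and 44, and higher calls 43, 264, 353 and 279. Over all windows 0.281%, 0.167%, 0.965% and 0.149% were called lower and 0.0743%, 0.583%, 0.875% and 0.586% higher. In windows over several blocks the shares were 0.768%, 0.29%, 1.92% and 0.211% lower and 0.192%, 1.25%, 1.68% and 1.34% higher. For 1-block windows of like length they were 0.145%, 0.131%, 0.919% and 0.156% lower and 0.0389%, 0.667%, 1.14% and 0.589% higher. Only for lower calls in replicate 2 of sgMETTL16-2 did this value lie inside the exact interval (0.154% to 0.284%). Enriched windows as a whole had a median log2 fold change of -0.04, 0.13, 0.12 and 0.14 in the authors' deposited tables. When each table was shifted by that median and a two-sided p was used, the calls were 85 lower and 40 higher, 78 and 64, 489 and 73, and 60 and 41. A two-sided p without a shift gave 134 and 33, 39 and 193, 284 and 237, and 31 and 207.

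**Figure D3:**
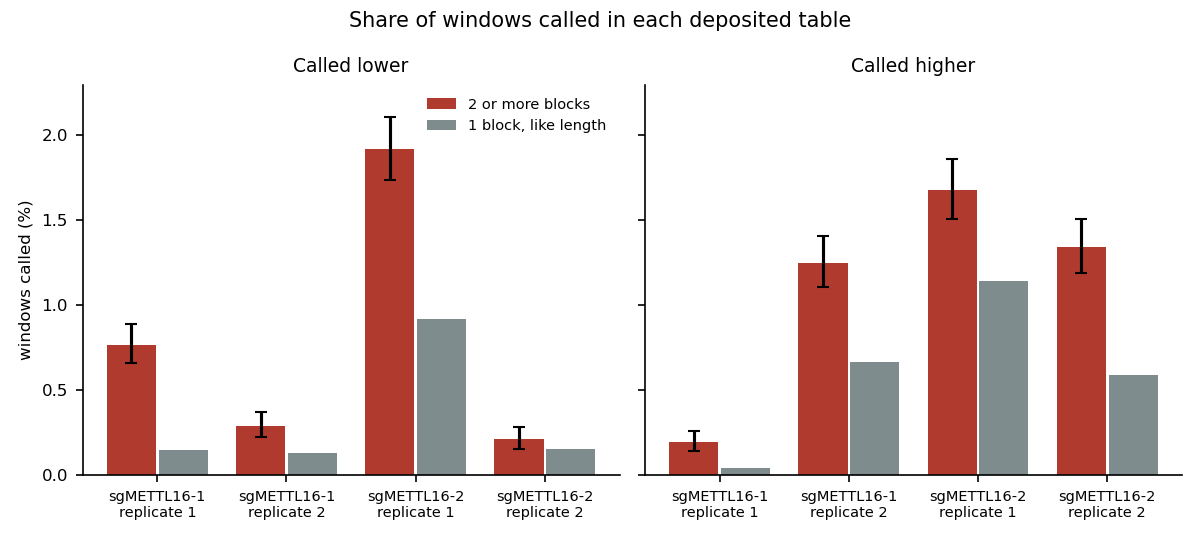
Percent of windows called lower (left) and higher (right) in each deposited table, with axes from 0. Red bars are windows of 2 or more blocks with their 95% exact interval and grey bars 1-block windows of like length; grey bars are shorter throughout, and for lower calls of sgMETTL16-2 replicate 2 the grey bar, at 0.156%, lies within the interval of the red one.

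Called windows were mostly enriched ones where the call was higher: 86%, 94.3%, 84.7% and 96.1%. Of the lower calls 82%, 54.1%, 48.1% and 61.4% were enriched. The median absolute log2 fold change of all windows over several blocks, called or not, was 0.36, 0.38, 0.45 and 0.37 in the authors' deposited tables. It was under that of 1-block windows of like length, 0.44, 0.48, 0.57 and 0.46. Among enriched windows of the first of the authors' deposited tables it was 0.18 for both kinds. A log2 fold change of exactly 0 stood in 4.18%, 4.52%, 4.83% and 4.32% of all windows over several blocks, against 6.67%, 6.69%, 6.77% and 6.51% of 1-block windows of like length. Calls became more frequent with length and with blocks. Under 200 bases 0.336%, 0.499%, 1.28% and 0.386% were called, and from 500 to under 1000 bases 3.56%, 5.71%, 12.3% and 5.92%, against 0.814%, 3.09%, 9.17% and 2.7% of 1-block windows there. At 1000 bases or more the shares were 5.31%, 14.7%, 39.8% and 15.2%, against 3.32%, 14.9%, 30.3% and 13.2%, so that among the longest windows the kinds were close in both replicate 2 tables. Windows of 2 blocks were called in 0.474%, 0.974%, 2.37% and 0.797% of cases, and those of 4 or more in 3.48%, 5.38%, 8.95% and 5.68%, against 0.418%, 2.34%, 5.82% and 2.32% of 1-block windows of like length.

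Between the replicate tables of a guide, 4972 pairs of windows over several blocks were matched for sgMETTL16-1 and 5628 for sgMETTL16-2. With sgMETTL16-1, 7 were called lower in both tables (0.141%), none higher in both and 17 in opposite directions. The 7 count EIF4A1 and SENP3-EIF4A1, which cover nearly the same bases, and XAGE1B and XAGE1E, which name the same blocks, as separate windows. Over all matched windows 0.0449% were lower in both, 0.02% higher and 0.0998% opposite. Most calls of a single sgMETTL16-1 table were not met again in the other. Only 4972 of the 22401 and 21062 windows over several blocks had such a match, however, and how many of the called ones did was not counted. A call without a match could not be met again. With sgMETTL16-2, 5 were lower in both (0.0888%), 68 higher in both, on 63 genes, and 3 opposite, where 0.0613%, 0.529% and 0.0142% of all matched windows were. EIF4A1 and SENP3-EIF4A1 are again counted separately among the 5. The 68 made 1.21% of the pairs, and the 31 higher pairs of 1-block windows made 0.233%. After the shift 4 of the sgMETTL16-2 windows were higher and 11 lower in both tables, and with a two-sided p alone 46 were higher and 4 lower.

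Called lower in all 4 tables were 3 windows, on EIF4A1, on its readthrough listing SENP3-EIF4A1 and on SRSF11, and none was called higher in all 4. Over all windows matched in all 4 tables, 0.0436% were called lower and 0.0436% higher. For EIF4A1, the RNA helicase of translation initiation, the authors' deposited tables gave log2 fold changes of -0.59, -0.74, -0.53 and -0.61. Its window changed shape between the replicate numbers: 2 blocks of 61 and 59 bases around a gap of 120 (chr17:7577646-7577885) in replicate 1 of sgMETTL16-1, and 3 blocks of 12, 138 and 30 bases (chr17:7577476-7577856) in both replicate 2 tables. Its fold enrichment in the authors' deposited tables was low, 1.16, 1.38, 1.16 and 1.45, though each had an FDR of IP over input of 0.00339 or less. SENP3-EIF4A1 repeats these reads at an offset of 1 or 2 bases, with -0.56, -0.78, -0.52 and -0.65 in the authors' deposited tables, and is no second result.

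SRSF11, a splicing factor of the serine- and arginine-rich family, had 5 blocks in each table, of 65, 90, 96, 139 and 390 bases in replicate 1 of sgMETTL16-1 (chr1:70244751-70251000). The authors' deposited tables gave it log2 fold changes of -0.27, -0.33, -0.24 and -0.33, with FDRs of 0.0002, 3.55e-05, 0.00155 and 1.41e-06. The values lay close together, and the windows shared 3 whole inner blocks in all tables. EIF4A1 and SRSF11 kept all 4 calls at an FDR of 0.01, with a two-sided p and after the shift.

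UPF3B, a nonsense-mediated decay factor that binds exon junction complexes, was called lower in both tables of both guides, at -0.66, -0.66, -0.86 and -0.66 in the authors' deposited tables. Its windows share a block edge at chrX:119841770 in 3 tables, and that of sgMETTL16-1 replicate 1 runs on to 119843242 with 4 blocks. The replicate 2 FDRs in the authors' deposited tables were 0.0245 and 0.0427, and neither call was left with a two-sided p, though both were kept after the shift. Its windows did not all overlap enough to be counted in the matched set of 4 tables. SETDB2, of the SET domain family, was lower in both sgMETTL16-2 tables (-0.70 and -0.72 in the authors' deposited tables), at chr13:49483476-49488556 in replicate 1. In the only matching sgMETTL16-1 window it was at -0.35 (FDR = 0.105) in the authors' deposited table.

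With sgMETTL16-1 alone, RPL37A and the listings XAGE1B and XAGE1E were also lower in both tables. RPL37A, of the large ribosomal subunit, covered 61, 83 and 125 bases of 3 exons (chr2:216499338-216501465) with -0.14 and -0.21 in the authors' deposited tables, and -0.09 (FDR = 0.0603) and -0.12 (FDR = 0.0162) with sgMETTL16-2. It was the most firmly enriched of the 7, with a fold of 1.5 to 1.57 and an FDR of IP over input of at most 1e-128 in the authors' deposited tables. XAGE1B and XAGE1E, copies of a cancer-testis gene, name the same 3 blocks of 89, 127 and 51 bases (chrX:52497369-52500752), and reads of the copies could not be told apart. They had -0.34, -0.61, -0.20 and -0.65 in the authors' deposited tables, and the third of these, with an FDR of 0.19, was not called. After the shift XAGE1B, XAGE1E and RPL37A lost the replicate 1 call of sgMETTL16-1.

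The 10 genes with the largest mean increase among the 68 sgMETTL16-2 windows are described next. In replicate 1, 7 of the 10 windows had 2 blocks, and all but that of STK40 covered 869 bases or more. STK40, a serine/threonine kinase gene, was at 0.77 and 0.89 in the authors' deposited tables. Its window joins the 5′ end of the gene to exons downstream over a gap of 24382 bases (chr1:36358301-36385927 in replicate 1) and was not enriched (FDR of IP over input 0.0955 and 0.408). DAPK3, a death-associated kinase gene, had 0.60 and 0.65 for sgMETTL16-2 in the authors' deposited tables, and 0.62 in replicate 2 of sgMETTL16-1, all called, in a window of 1185 and 45 bases at the 3′ end of the gene (chr19:3958453-3960103). ARID1A, a subunit of the SWI/SNF chromatin remodeller, was at 0.75 and 0.34 in the authors' deposited tables of sgMETTL16-2. Its first block of 1181 bases starts 345 bases into the gene, and the next lies 32110 bases further on (chr1:26696360-26729786).

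GATAD2A, of the NuRD repressor complex, was at 0.70 and 0.48 in the authors' deposited tables, with 1082 bases of 1 exon and 24 or 113 of the one before. ZBTB7B, a zinc finger transcription factor gene, was at 0.74 and 0.49, RPRD2 at 0.60 and 0.56 and TNRC18 at 0.45 and 0.72 in the authors' deposited tables. CDC42SE1, an effector of the GTPase CDC42, was at 0.41 and 0.74 over 4 blocks, and TBC1D10B, which acts on Rab GTPases, at 0.59 and 0.56 in the authors' deposited tables. HNRNPUL2-BSCL2, a readthrough listing, began at the 5′ end of its gene (chr11:62724324-62727384) and was at 0.55 and 0.48 in the authors' deposited tables. With a two-sided p DAPK3 lost all its calls, ARID1A, STK40 and ZBTB7B those of sgMETTL16-2 replicate 2, and TNRC18 that of replicate 1. Of these 10, HNRNPUL2-BSCL2 alone kept both sgMETTL16-2 calls after the shift, with 0.43 and 0.35. With sgMETTL16-1 in replicate 1, the 7 of these genes with a matching window stood between 0.00 and 0.44 and none was called in the authors' deposited table.

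**Figure D4:**
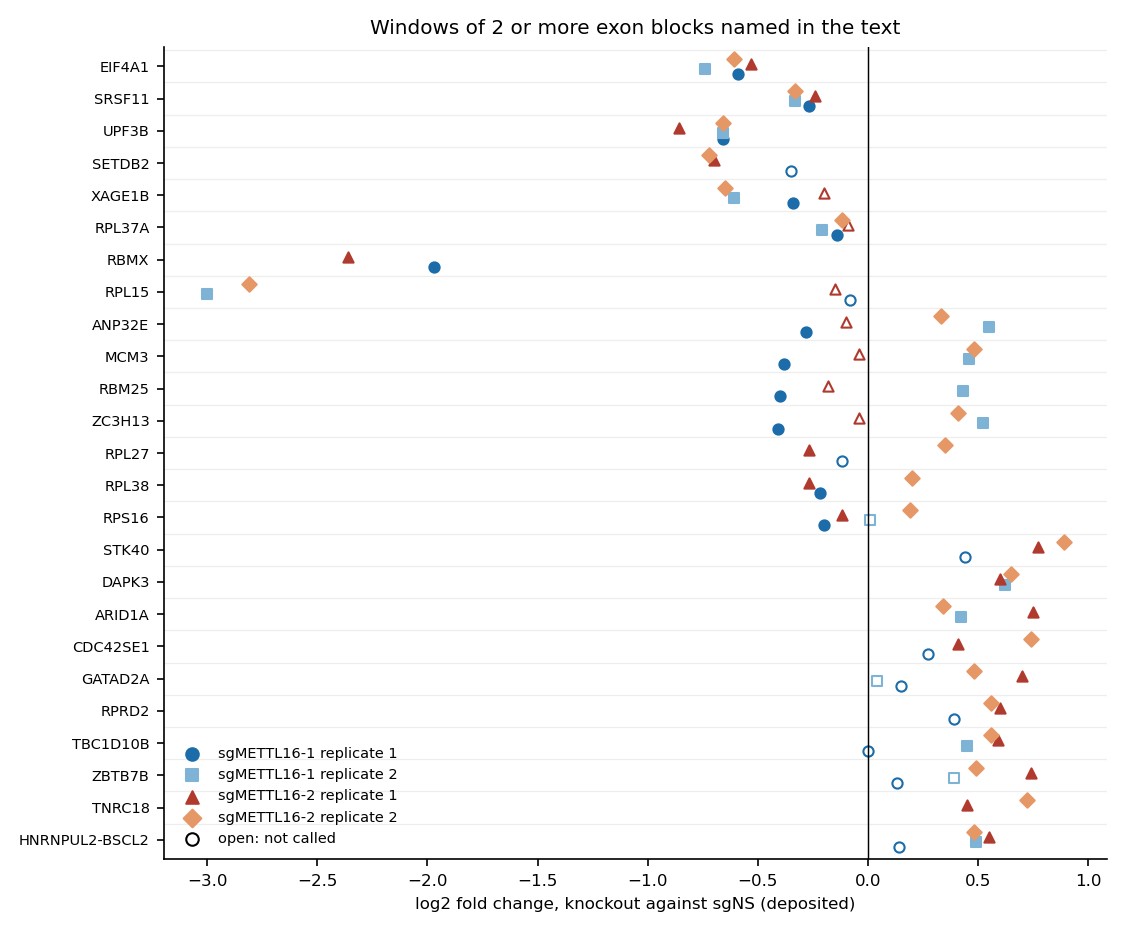
Log2 fold change of the knockout against sgNS in the deposited tables for 25 windows of 2 or more blocks, 1 row for each gene, with 1 symbol for each table that has a matching window (for GATAD2A, TBC1D10B and ZBTB7B some matching windows of sgMETTL16-1 had 1 block). Filled symbols are called at an FDR under 0.05; EIF4A1 and SRSF11 have 4 filled symbols below 0, RPL15 has its replicate 2 symbols near -3 and its replicate 1 symbols near 0, and ZC3H13, MCM3 and ANP32E have called symbols on both sides of 0.

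Opposite calls within a guide are given for the 5 windows of sgMETTL16-1 with the largest changes and the 3 of sgMETTL16-2. All 8 were called lower in the replicate 1 table and higher in that of replicate 2. With a two-sided p RPS16 lost both calls and RPL38 the higher one, and after the shift ZC3H13 and RBM25 alone kept both. ZC3H13, a subunit of the m6A writer complex, had -0.41 and 0.52 in the authors' deposited tables of sgMETTL16-1, over 532 and 128 bases in replicate 1 (chr13:45975307-45979940). For sgMETTL16-2 the authors' deposited tables gave -0.04 and 0.41, the second of them called. MCM3, of the replicative helicase, was at -0.38 and 0.46, then -0.04 and 0.48, in the authors' deposited tables. ANP32E, a histone chaperone gene, was at -0.28 and 0.55, then -0.10 and 0.33, in the authors' deposited tables. RBM25, a splicing regulator with 9 blocks in replicate 1 and 7 in replicate 2, had -0.40 and 0.43 in the authors' deposited sgMETTL16-1 tables. The long non-coding LINC00926 had -0.40 and 0.34 there. For each of these genes both replicate 2 values were above both replicate 1 values, or above those that had a match. Ribosomal protein genes made up the sgMETTL16-2 cases: RPL27 at -0.27 and 0.35, RPL38 at -0.27 and 0.20 and RPS16 at -0.12 and 0.19 in the authors' deposited tables. Their windows had 3 blocks in replicate 1 and 2 in replicate 2.

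The largest firmly enriched decreases were each tied to 1 replicate number. RPL15, of the large ribosomal subunit, was at -3.00 (FDR = 5.01e-92) and -2.81 (FDR = 1e-83) in the authors' deposited replicate 2 tables, over 4 blocks of 14, 137, 51 and 8 bases (chr3:23918018-23921605). In the replicate 1 tables the matching window lacked the first block and stood at -0.08 (FDR = 0.655) and -0.15 (FDR = 0.518), as deposited by the authors in their tables. RBMX, an RNA-binding splicing regulator on the X chromosome, was at -1.97 (FDR = 7.94e-21) and -2.36 (FDR = 1e-27) in the authors' deposited replicate 1 tables, over 4 blocks with 126 and 115 bases in the middle (chrX:136875151-136879026 with sgMETTL16-1). No replicate 2 window matched it. Reads of both genes can also fit processed copies elsewhere in the genome, and how the authors counted such reads is not given in the sources used here.

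Other large decreases rested on short windows that were not enriched. C9orf85 was at -4.58 (FDR = 0.0186), SLTM at -2.59 (FDR = 3.89e-07) and NFYB, of the CCAAT-binding factor NF-Y, at -2.51 (FDR = 0.00813) in the authors' deposited table of sgMETTL16-2 replicate 1. In replicate 2 CCDC28A was at -2.07 (FDR = 0.000407) with sgMETTL16-1, and CSNK2A1, the catalytic subunit of casein kinase 2, at -1.91 (FDR = 0.00389) and, for sgMETTL16-2, at -1.51 (FDR = 0.0162) in the authors' deposited tables. AGPAT4 was at -1.71 (FDR = 0.0447) and TAF1, of the transcription factor TFIID, at -1.57 (FDR = 0.0302) in the authors' deposited table of sgMETTL16-2 replicate 2. DNAJC2 was at -1.57 (FDR = 0.0151) and RSL24D1 at -1.41 (FDR = 0.00302) in the authors' deposited table of sgMETTL16-1 replicate 1. The called windows of these 9 genes had summed lengths of 89 to 270 bases and FDRs of IP over input of 0.213 or more. With a two-sided p the calls of C9orf85, AGPAT4 and TAF1 were lost, and after the shift those of DNAJC2, AGPAT4 and TAF1.

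Among the largest increases, EIF2S2, a subunit of initiation factor eIF2, was at 2.01 (FDR = 0.000126) in the authors' deposited table of sgMETTL16-1 replicate 1, with the identical 3, 57 and 89 bases at -0.69 (FDR = 0.406) in that of sgMETTL16-2. RPS10 and its readthrough listing RPS10-NUDT3 were at 2.40 and 2.44 in the authors' deposited table of sgMETTL16-2 replicate 1. They share 1 pair of blocks at the 5′ end of the gene, which was not enriched. RPL18 was at 1.37 (FDR = 1e-98) in the authors' deposited table of sgMETTL16-2 replicate 2, in the window whose first exon edge is printed above. GLTSCR1 (2.17), POU2F1 (2.09), ASMTL (1.63), MEF2B (1.56), RRP8 (1.52), ANKLE2 (1.42), KCNN4 (1.25) and GNB1 (1.22) were each called higher in 1 of the authors' deposited tables. For these 8 no matching window was called in another table. The calls of GLTSCR1 and POU2F1 were lost with a two-sided p and after the shift, and that of MEF2B after the shift.

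Ribosomal protein genes held an outsized number of calls. Of 81 genes listed, 66, 48, 65 and 51 had a window over several blocks, and these windows numbered 81, 60, 85 and 61. Called lower were 25, 4, 27 and 5 of them and higher 4, 10, 3 and 13, which is 35.8%, 23.3%, 35.3% and 29.5% called, beside 0.96%, 1.54%, 3.6% and 1.55% of all windows over several blocks. Enriched were 72.8%, 58.3%, 72.9% and 67.2%. Length and depth were not matched in this comparison. Their 1-block windows, 75 to 88 per table, gave 3, 5, 3 and 1 lower and 0, 2, 0 and 2 higher calls. The median log2 fold change in the authors' deposited tables was -0.12, 0.03, -0.11 and 0.10, where that of all windows over several blocks was -0.01, 0.00, 0.00 and 0.00. Lower calls outnumbered higher ones in both replicate 1 tables and the reverse held in both replicate 2 tables. Besides RPL15 and RPL18, low FDRs belonged to RPL34 at -1.09 (FDR = 7.94e-42) and RPL3 at 0.81 (FDR = 3.98e-32) in the authors' deposited table of sgMETTL16-1 replicate 1, with no called match of these windows in another table. RPL34 also had a window called lower in replicate 1 of sgMETTL16-2, and RPL3 had one called lower in replicate 2 of that guide. These genes have many processed copies, so their counts are uncertain.

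Genes of the exon junction complex and its partners had 32, 33, 31 and 30 windows over several blocks on 14 to 16 of 17 genes. These windows lie on the transcripts of those genes and do not show where the complex sits. Lower were 3, 1, 3 and 1 of the windows and higher 0, 1, 1 and 1. That is 9.38%, 6.06%, 12.9% and 6.67% called, beside 0.96%, 1.54%, 3.6% and 1.55% of all windows over several blocks. Enriched were 34.4%, 42.4%, 45.2% and 43.3% of the windows in this list, and length and depth were not matched. UPF3B supplied at least 1 lower call in each table. MAGOH, of the complex core, had a window called lower in both replicate 1 tables, at -1.20 (FDR = 5.01e-08) in the authors' deposited table of sgMETTL16-2. UPF3A, the paralogue of UPF3B, was at -1.42 (FDR = 0.0145) there. UPF3A stood at -1.34 in replicate 2, without a call (FDR = 0.261), in the authors' deposited table. ACIN1, an auxiliary component, was higher in 3 tables, with -0.06, 0.41, 0.23 and 0.35 in the authors' deposited tables over 3 blocks (chr14:23059162-23061511 in the first). Its replicate 1 call was lost with a two-sided p, and after the shift the sgMETTL16-1 call alone was kept.

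Splicing factors, 25 genes, had 36, 37, 37 and 41 windows over several blocks, of which 3, 2, 4 and 2 were lower and 0, 5, 6 and 7 higher. That is 8.33%, 18.9%, 27% and 22% called, beside 0.96%, 1.54%, 3.6% and 1.55% of all windows over several blocks. Enriched were 38.9%, 56.8%, 45.9% and 56.1%, beside 12.9%, 18.2%, 16.3% and 19.4% of all windows over several blocks. SNRNP70, the 70K protein of the U1 particle, was at -0.01, 0.23, 0.37 and 0.25 over 3 blocks up to the end of the gene (chr19:49104693-49108613), called in all but the first of the authors' deposited tables. After the shift the call in replicate 1 of sgMETTL16-2 alone was kept. HNRNPA2B1, an RNA-binding protein that has been described as an m6A reader, had short windows of 120 to 150 bases at -0.41, -0.18 and -0.63 in the authors' deposited tables, called in both replicate 2 tables. A different window of the gene was called higher in each of these 2 tables, and 1 was called lower in replicate 1 of sgMETTL16-1. HNRNPH1 was called in 1 table, at 0.58 (FDR = 9.12e-05), in the authors' deposited table of sgMETTL16-1 replicate 2. The m6A writers had 16, 14, 13 and 11 windows over several blocks, and their only calls, 1 in each table, were on ZC3H13. That is 6.25%, 7.14%, 7.69% and 9.09% called, and 25%, 35.7%, 38.5% and 36.4% of the windows in this list were enriched. In both lists the share called, 6.25% to 27%, lay above that of all windows over several blocks, and length and depth were not matched in these lists.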

How the data were processed

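The authors deposited 4 tables, each of which compares a METTL16 guide with sgNS for 1 number, read here as the replicate number in the labels. Per the submitters' processing notes, STAR and the GRCh38 build were used. No peak caller or setting is given in the sources used here. As deposited by the authors, the fold enrichment is a ratio of IP to input per window, and their deposited log2 fold change compares its knockout and control values. The deposited p-values and FDRs of both are on a log10 scale in the tables and were converted back, and the deposited p of the difference behaved as one-sided. Depth per library is unknown, and the values were tested no further because no value per library is given.

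Windows were split by number of blocks. Length matching weighted 1-block windows to the lengths of the others in 30-base bins. Called means a deposited FDR of the difference under 0.05, and enriched an FDR of IP over input under 0.05. Windows of different tables were paired 1 to 1 on strand, gene name and at least 0.5 of the bases of each. Intervals are exact binomial (Clopper-Pearson) at 95%. Positions come from RefSeq gene ends, matched for 98.5% to 98.6% of the windows over several blocks. Shifted calls subtract the median log2 fold change of a table's enriched windows, use a normal approximation to the deposited p and adjust by Benjamini-Hochberg. The scripts used Python 3.11.15, numpy 2.4.6, pandas 2.3.3 and scipy 1.17.1 and were tested on simulated data.

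Named are MAT2A and METTL16, up to 10 genes a guide and direction called in both tables, those called in all 4, up to 5 opposite calls a guide, the 10 highest mean folds, and per table the 3 largest lower and higher calls, the 3 windows with most blocks, the 3 genes with most such windows and the leading calls of each gene list. The 8 printed edges were chosen because their windows were called, with edges on chromosome 8 and those nearest the gene start left out. Some of the named genes and markers are not reported here. The members and lists were chosen with earlier results of these data known. The alternatives for windows called in both tables with a two-sided p and with the shift were chosen after seeing the data.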

Additional observations from a re-analysis of the deposited data

How the results depend on the processing

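No paired analysis was possible because the deposited tables hold only finished comparisons, and their columns carry no value per library. In the order of tables, lower calls (172, 61, 403 and 44) became 104, 32, 233 and 26 at an FDR of 0.01, 15, 28, 175 and 13 where the log2 fold change had to reach 1 in size, and 22, 1, 79 and 2 where the fold enrichment had to reach 2. Higher calls (43, 264, 353 and 279) became 28, 163, 176 and 174, then 8, 11, 23 and 9, then 6, 57, 113 and 81. With a smallest block of at least 30 bases, lower calls fell to 34, 262 and 27 in the last 3 tables and higher calls to 24 and 174 in the first 2. With 1 window per gene, lower calls were 27, 214 and 21 in the last 3 tables, and higher calls 24 in the first and 215 in the third. A two-sided p moved 1 of these 8 counts by over 1.5 times, to 39 lower in the second table. The shift moved lower calls to 85 in the first table, and higher calls to 64, 73 and 41 in the last 3.

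The excess of enriched windows over 1-block windows of like length, 2.15, 1.73, 2.76 and 2.05 percentage points, was 1.70 in the first table with 10-base bins. It was 6.68, 8.94, 8.45 and 10.09 without length matching and 0.38, 0.32, 1.23 and 0.60 within gene and length class. At an FDR of 0.01 it was 1.49 in the first table and 2.23 in the third. With a fold of at least 2 in place of the FDR it turned to -15.96, -17.30, -16.68 and -16.98.

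The excess of called windows, 0.78, 0.72, 1.49 and 0.75 percentage points, was 1.13, 2.43 and 1.16 in the last 3 tables without length matching. Within gene and length class it was 0.43, 0.40, 1.00 and 0.17, and at an FDR of 0.01 it was 0.49, 0.45, 0.85 and 0.54. A smallest block of at least 30 bases gave 1.00 in the first table and 1.84 in the third. Among windows with a fold of at least 2 it was 0.35, -0.13, 0.46 and 0.15, so that in the second table the order turned. The cause was not tested.

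Of windows called in both tables, sgMETTL16-1 had 7 lower. That count was 4 at an overlap of 0.8, 4 at an FDR of 0.01 and 4 after the shift. A single table gave 61 to 172. For higher calls it had 0 in both and 43 to 264 in a single table. With sgMETTL16-2, 5 lower became 1 at an overlap of 0.8 and 11 after the shift, with 44 to 403 in a single table. Its 68 higher became 40 at an overlap of 0.8, 36 at an FDR of 0.01 and 4 after the shift, with 279 to 353 in a single table. Of 118 called values of named windows, 97 were kept with a two-sided p, 77 after the shift and 82 at an FDR of 0.01. Counting identical windows once, and bins of 100 bases, moved none of the counts and differences they were run on.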

Other observations

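The windows with the most exon blocks lay on few genes. TNNT1, a troponin gene, had 14 blocks and 1004 bases in replicate 1 of sgMETTL16-1 (chr19:55132787-55149236), at -0.14 in the authors' deposited table. It was at 0.55 (FDR = 5.01e-14) and 0.20 over 14 blocks in the next 2 tables, and at 0.42 (FDR = 1.95e-06) over 7 blocks in the last of the authors' deposited tables. Its first exon end is among the printed sequences. INCENP, of the chromosomal passenger complex, had 12 or 13 blocks in each table and 1164 to 1253 bases. It stood at -0.23, 0.21, 0.29 and 0.26 in the authors' deposited tables, of which the third was called (FDR = 0.0417).

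COL9A2, a collagen gene, reached 17 blocks in 895 bases (chr1:40303598-40311137) and was higher at 0.35 (FDR = 7.94e-05) in the authors' deposited table of sgMETTL16-2 replicate 2. KRI1 with 16 blocks was higher there at 0.22 (FDR = 0.0309), and HDGFRP2 with 15 at 0.23 (FDR = 0.00251) in the authors' deposited table of sgMETTL16-1 replicate 2. EVI5L with 13 blocks was higher at 0.52 (FDR = 0.0302) in the authors' deposited table of sgMETTL16-2 replicate 1. PPP1R12C, a myosin phosphatase subunit, had 10 to 15 blocks and -0.19, 0.23, 0.20 and 0.20 without a call in the authors' deposited tables. PSTPIP1 with 14 blocks and RUFY1 with 12 were not called either. All calls among these 9 genes were higher. With a two-sided p those of INCENP, KRI1 and EVI5L were lost, and after the shift by the median of the enriched windows TNNT1 alone kept its calls.

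Among the genes with the most windows over several blocks were giants of muscle and cytoskeleton. TTN, which encodes titin, had 29 such windows of 69 in replicate 1 of sgMETTL16-1 and 24 of 71 in replicate 1 of sgMETTL16-2. NEB, for nebulin, had 22 of 25 and DYNC2H1, a dynein heavy chain, 20 of 30 in the first of these tables. In the replicate 2 tables SSPO had 20 of 33 and 26 of 34, and DST, for dystonin, 20 of 34 and 24 of 39. In replicate 1 of sgMETTL16-2, DST had 23 of 37. None of the windows counted here was enriched or called. A window in these tables therefore does not mean that methylation was detected there.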
